A study of Mus musculus with 12 samples.

Results

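Imiquimod (IMQ) cream is applied to mouse skin to raise psoriasis-like lesions, and 8 genes of the IL-10 cytokine family were followed in such skin. They are the ligands Il19, Il20 and Il24 of the IL-20 subfamily, the ligands Il22 and Il10, and the receptor chains Il20ra, Il20rb and Il22ra1. The 8 genes were chosen by family membership from 56923 genes in the table, after Il24 had been seen among the largest rises of WT IMQ against WT control. The contrast behind that choice is therefore given for Il24 as a description without a test, and so is each other contrast that holds a WT group. Of the 8 genes, 7 had enough reads to be among the 18529 genes tested, and Il20 did not.

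The skin came from 12 female C57BL/6 mice of 8 to 10 weeks in 4 groups of 3. WT control and WT IMQ mice were littermates of the mice labelled Lcn2-/-, a purchased knockout line for lipocalin 2. The shaved backs of the IMQ groups received 5% IMQ cream for 6 days and those of the control groups vehicle cream, although the sample labels give the treatment of the controls as none and the genotype as a knockdown. RNA of whole skin was sequenced in paired reads of 150 bp, and the p-values measure the spread between these mice.

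IL-19, IL-20 and IL-24 signal to the epidermis through a receptor of IL-20RA with IL-20RB, and IL-20 and IL-24 also through IL-22RA1 with IL-20RB. IL-22 pairs IL-22RA1 with IL-10RB, and these receptors sit on keratinocytes and other epithelial cells and act mainly through JAK1 and STAT3. Lymphocytes are the main source of IL-22, myeloid cells and keratinocytes make the IL-20 subfamily, and IL-10, which acts on leukocytes, restrains inflammation.

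The libraries held between 16448226 and 28592110 counts on genes, and 3 counts corresponded to between 0.0985 and 0.202 CPM, the count scaled to the normalized library size. These limits cover counting error only. Keratinocyte, fibroblast and endothelial markers of skin were counted in every library, and the 5 retina markers summed to at most 2.42 CPM. Lcn2 itself was counted in every library labelled Lcn2-/-, with 320, 173 and 357 counts in control mice 1 to 3 and 561, 511 and 830 in IMQ mice 1 to 3. WT control mice had 136, 201 and 86 counts and WT IMQ mice 1010, 2723 and 1572, and the paper lists Lcn2 among the genes lowered by the knockout in IMQ skin. The counts thus go against a full loss of this RNA, do not measure the protein, and these groups are named by the label only. Mouse 2 stood apart in the WT control and WT IMQ groups. Its libraries differed from the others of their group by a chi-square per gene of 57.7 and 92.1 among controls, where the other pair differed by 32.1, and of 48.2 and 49.4 among IMQ mice, where the other pair differed by 11.6. Controls 1 and 2 labelled Lcn2-/- differed by more, 95.8, but mouse 3 differed from them by 40.5 and 39.4, so no single mouse stood apart there. Results that rest on mouse 2 of a WT group are given with and without it.

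Il24, Il20, Il19 and Il10 lie in this order on chromosome 1 of GRCm38, within 143 kb. Il24 occupies chr1:130882074-130887454, Il20 chr1:130906985-130911451 and Il19 chr1:130932656-130940115, all on the minus strand, with gaps of 19.5 kb and 21.2 kb between them. Il10 follows 79.7 kb further on the plus strand, at chr1:131019845-131024974. Il22 lies on chromosome 10 (chr10:118204942-118210047, plus strand), 79.6 kb from Iltifb, a near-identical copy that was at 0 counts in every mouse. Reads that fit both copies could be split or dropped in the counting, so the Il22 counts are uncertain to that extent. The receptor genes are apart from the cluster and from each other, with Il20ra at chr10:19712570-19760053 on the plus strand, Il20rb at chr9:100457719-100486788 on the minus strand and Il22ra1 at chr4:135728172-135752140 on the plus strand.

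RefSeq promoter windows on GRCm38.p6, from 250 bases before to 50 bases after the start of a gene, were available for 6 of the 8 genes. The windows of Il19 and Il20 are shown because these neighbouring ligands were both raised in IMQ skin, and those of Il22ra1 and Il20ra because these receptor chains moved in opposite directions. They run 5′ to 3′ on the strand of the gene, and capitals mark every match to the motifs searched on both strands, AP-1 (TGANTCA), STAT (TTCNNNGAA), NF-kB (by its consensus) and a TATA box (TATAAA). The Il19 window is chr1:130940066-130940365, the Il20 window chr1:130911247-130911546, the Il22ra1 window chr4:135727909-135728208 and the Il20ra window chr10:19712337-19712636.
Il19: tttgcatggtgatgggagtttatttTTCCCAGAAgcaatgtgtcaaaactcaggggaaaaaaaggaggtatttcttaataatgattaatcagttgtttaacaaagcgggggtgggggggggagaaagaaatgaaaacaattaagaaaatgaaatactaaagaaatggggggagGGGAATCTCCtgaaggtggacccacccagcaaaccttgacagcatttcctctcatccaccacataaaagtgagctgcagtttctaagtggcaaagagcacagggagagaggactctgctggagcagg
Il20: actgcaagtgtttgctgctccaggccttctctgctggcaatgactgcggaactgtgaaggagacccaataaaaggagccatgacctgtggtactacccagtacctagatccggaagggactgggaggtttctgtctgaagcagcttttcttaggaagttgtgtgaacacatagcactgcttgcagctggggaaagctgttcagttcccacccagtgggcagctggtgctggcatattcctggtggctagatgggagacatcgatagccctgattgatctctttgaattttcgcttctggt
Il22ra1: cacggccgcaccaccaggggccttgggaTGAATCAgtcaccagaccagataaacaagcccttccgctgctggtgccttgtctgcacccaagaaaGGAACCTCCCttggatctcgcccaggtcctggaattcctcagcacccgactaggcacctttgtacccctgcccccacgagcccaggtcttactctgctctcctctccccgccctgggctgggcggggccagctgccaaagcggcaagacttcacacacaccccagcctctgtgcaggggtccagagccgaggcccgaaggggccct
Il20ra: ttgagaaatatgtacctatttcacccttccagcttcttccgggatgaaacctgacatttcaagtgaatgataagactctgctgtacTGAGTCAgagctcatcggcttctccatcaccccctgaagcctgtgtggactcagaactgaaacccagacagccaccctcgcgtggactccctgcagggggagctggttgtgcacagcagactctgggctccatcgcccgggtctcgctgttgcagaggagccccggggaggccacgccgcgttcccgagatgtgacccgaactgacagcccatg
The Il19 window held 1 STAT match starting at base -225 and 1 NF-kB match at base -77 from the start site, and the Il20 window held no match. The Il22ra1 window held 1 AP-1 match at -222 and 1 NF-kB match at -156, and the Il20ra window held 1 AP-1 match at -164. Of the 2 windows not shown, that of Il22 held 1 TATA box at -170 and that of Il20rb no match. None of these matches overlapped another. Among 32851 promoter windows of the same length, 7.81% held the AP-1 motif, 8.3% the STAT motif, 8.46% the NF-kB motif and 13.6% the TATA box. A match is a string of letters in a window and was not tested as a binding site.

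Il19 and Il24 went from the edge of detection in control skin to clear expression in IMQ skin, with Il19 far ahead, while Il20 stayed low. Il19, whose product signals through IL-20RA with IL-20RB, was counted 1, 3 and 3 times in WT control mice 1 to 3 and 774, 1068 and 906 times in WT IMQ mice. In CPM these were 0.0462, 0.129 and 0.16 against 46.9, 71.8 and 43.9. Every IMQ mouse lay above every control mouse, and the ratio of summed counts was 481, with an exact 95% counting interval from 233 to 1197. In edgeR's quasi-likelihood test Il19 rose by 8.86 on the log2 scale (SE 0.48, adjusted p = 1.21e-06), and by 8.60 without mouse 2 of the WT IMQ group (adjusted p = 4.06e-06).

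In skin labelled Lcn2-/-, Il19 was counted 4, 0 and 4 times in control mice 1 to 3 and 164, 202 and 276 times in IMQ mice. The IMQ values of 10, 11.8 and 16.6 CPM again lay above all control values, which reached 0.179 CPM. The rise was 6.77 on the log2 scale (SE 0.47, edgeR adjusted p = 1.12e-05), and the ratio of summed counts was 115 (57.8 to 267). Among IMQ mice, the means were 12.8 ± 3.38 CPM (SD, n = 3) in those labelled Lcn2-/- and 54.2 ± 15.3 in WT, with no overlap between the groups.

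Il24, a ligand of both IL-20 receptor types, had 0 counts in all 3 WT control mice. WT IMQ mice 1 to 3 had 208, 258 and 267 counts, or 12.6, 17.3 and 12.9 CPM. Against the level of 3 counts per library, this was at least 100-fold higher, a description of the values that led to the choice of these genes. In skin labelled Lcn2-/-, Il24 had 3, 0 and 0 counts in control mice and 36, 33 and 70 in IMQ mice, which is 2.2, 1.93 and 4.2 CPM in the latter. Each of these IMQ mice exceeded each control mouse, and the rise, a contrast that the choice did not use, was 5.88 on the log2 scale (SE 0.68, edgeR adjusted p = 0.000408). The ratio of summed counts was 66.1 with an interval from 22.2 to 325, since it rests on 3 counts in control mouse 1. The fitted rise rests on that mouse too, and was 8.71 without it (adjusted p = 0.000961) and between 5.40 and 6.09 with any other of these mice left out. The IMQ mice labelled Lcn2-/- averaged 2.77 ± 1.24 CPM of Il24 and the WT IMQ mice 14.3 ± 2.65, without overlap and without a test.

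Il20, which lies between Il24 and Il19 and shares their receptors, was the least abundant of these ligands. It had 0 counts in all 6 control mice, 13, 33 and 9 counts in WT IMQ mice 1 to 3, and 5, 4 and 3 in IMQ mice labelled Lcn2-/-. All 6 IMQ mice thus had reads, those labelled Lcn2-/- close to the level of 3 counts, and mouse 2 of the WT IMQ group held more than the other WT IMQ mice combined. The WT IMQ mean of 1.15 ± 0.944 CPM was at least 8.06-fold higher than the level of 3 counts, and that of the IMQ mice labelled Lcn2-/-, 0.24 ± 0.0629 CPM, at least 1.83-fold. Il20 was below the minimum for testing, and without that minimum edgeR gave adjusted p-values of 0.000923 for WT IMQ against WT control and 0.0237 for the same contrast in mice labelled Lcn2-/-. The fitted fold change of a gene at 0 in a group depends on the prior count and is not given for Il20.

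**Figure D1:**
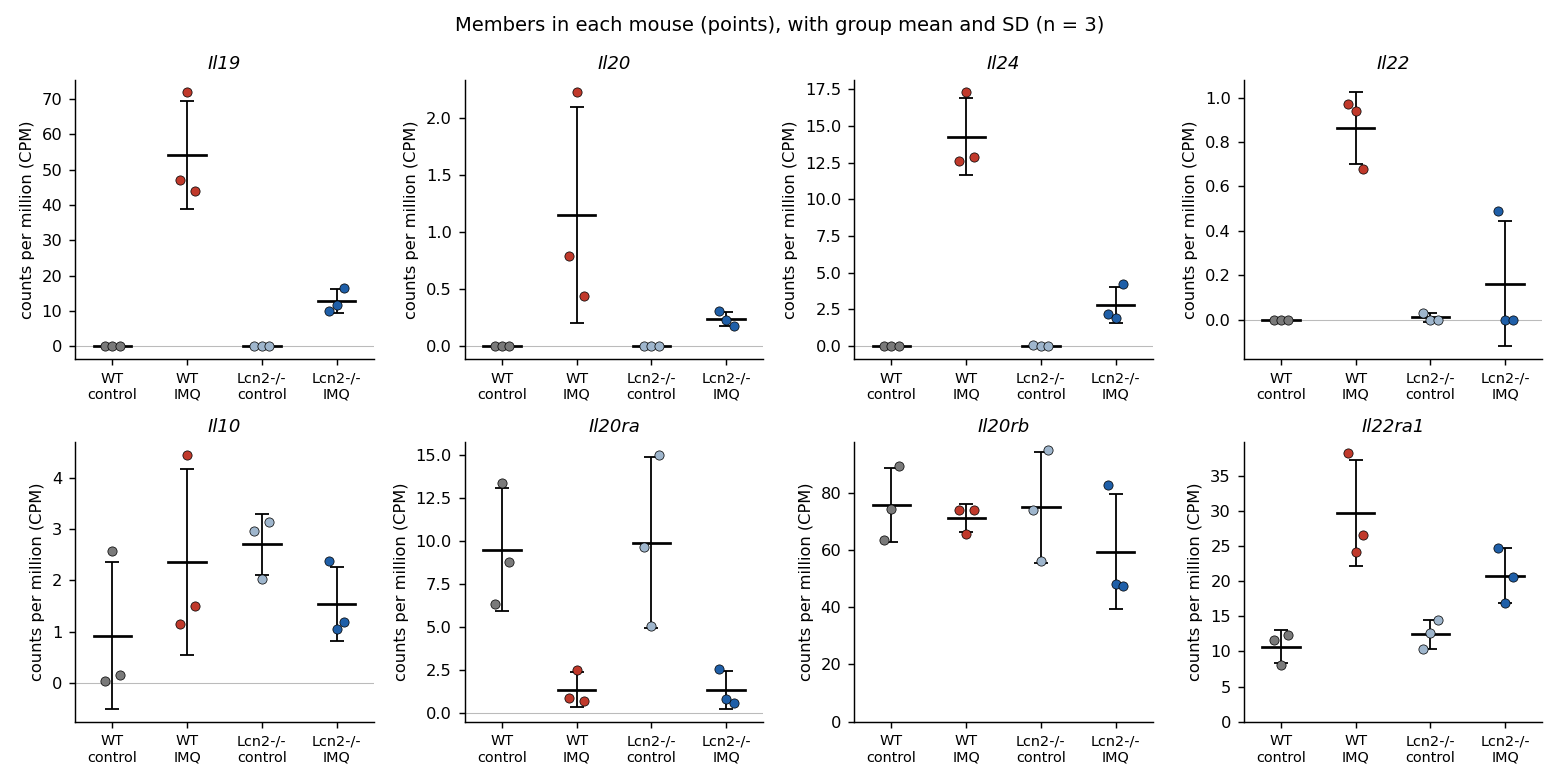
CPM of the 8 genes (1 panel each, with its own axis) in each of the 12 mice, as points over the mean and SD of each group of 3; the groups named Lcn2-/- are so labelled by the study. The 3 WT IMQ mice sit at 43.9 to 71.8 CPM of Il19, the 3 IMQ mice labelled Lcn2-/- at 10 to 16.6, and all controls at or below 0.179, whereas Il20ra is lower in both IMQ groups and Il20rb overlaps among all 4 groups.

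Il22, the product of T helper 17 and other lymphoid cells, was scarce. No read was counted in WT control mice, while WT IMQ mice 1 to 3 had 16, 14 and 14 counts (0.969, 0.941 and 0.678 CPM). Control mice labelled Lcn2-/- had 1, 0 and 0 counts, and among the IMQ mice with that label mouse 1 had 8 counts and the other two none, which allows up to 3 counts in each. The groups did not overlap in WT skin and did overlap in skin labelled Lcn2-/-. The WT IMQ mean was at least 6.06-fold higher than the level of 3 counts per library, and edgeR called the rise (adjusted p = 0.011). Il22 was kept for testing only through the counts of the WT IMQ mice, so this call rests on the same values as its selection and is given as a description. In the mice labelled Lcn2-/- the ratio of summed counts was 11.4, with an interval from 1.53 to 507, and the difference was not called (3.07 on the log2 scale, SE 1.60, adjusted p = 0.187). A rise to the counts of the WT IMQ mice was not seen in the second genotype, and at these counts a smaller rise could not be told from none.

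The 7 T cell markers summed to between 49 and 71.4 CPM in WT control, 44.1 and 49.7 in WT IMQ, 35.8 and 61.9 in control labelled Lcn2-/-, and 37.4 and 51.7 in IMQ labelled Lcn2-/-. In WT IMQ against WT control, 5 of the 7 fell and 1, Trbc2, rose. Of 14 genes that mark lymphocyte sources of IL-22, 6 fell in the same contrast and 0 rose, beside 14.3% and 14.2% of all genes. At an unadjusted p under 0.05, 1 was higher, and in DESeq2 0 were higher. That gene was Cd4, at 8.63 ± 2.25 CPM in WT control and 15.9 ± 8.15 in WT IMQ (edgeR adjusted p = 0.107). The CD3 chain gene Cd3g fell by 2.02 on the log2 scale (SE 0.45, adjusted p = 0.00649) and Thy1 fell by 0.89 (SE 0.21, adjusted p = 0.00833) in edgeR. Thy1 stood at 258 ± 57.6 CPM in WT control beside 17.7 ± 2.54 for Cd3g, and whether lymphocytes were its source was not tested. The part of these cells in the Il22 values was not tested, and in bulk skin fewer cells of a type and less RNA per cell cannot be told apart, here and for every gene that follows.

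In WT skin Il10 differed widely between mice of a group, and control and IMQ mice overlapped in both genotypes. WT control mice 1 to 3 had 1, 60 and 3 counts (0.0462, 2.58 and 0.16 CPM), and WT IMQ mice had 19, 66 and 31 (1.15, 4.44 and 1.5 CPM). In skin labelled Lcn2-/-, control mice had 90, 38 and 70 counts and IMQ mice 39, 18 and 20. Mouse 2 was the highest of its group in both WT groups, and the WT groups overlapped through it. IMQ was not followed by a called change of Il10 in WT skin (1.30 on the log2 scale, SE 0.95, edgeR adjusted p = 0.334) or in skin labelled Lcn2-/- (-0.81, SE 0.93, adjusted p = 0.554).

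The Il10 result in WT skin rests on WT control mouse 2. Without it the difference was 4.47 on the log2 scale (edgeR adjusted p = 0.00318), and without mouse 2 of both WT groups, a fit chosen after the data were seen, it was 3.65 (adjusted p = 0.00336). The 6 macrophage markers, of a cell type that makes IL-10, summed to 2126 CPM in WT control mouse 2 and to 1181 and 523 CPM in mice 1 and 3, and to 2160 CPM in WT IMQ mouse 2 against 1471 and 1346. Whether that difference accounts for the Il10 counts was not tested.

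On the receptor side, Il22ra1 rose in IMQ skin, Il20ra fell and Il20rb stayed within its spread. Il22ra1, the chain that IL-22, IL-20 and IL-24 receptors share, was at 11.6, 8.08 and 12.4 CPM in WT control mice 1 to 3 and at 38.2, 24.2 and 26.5 CPM in WT IMQ mice. The lowest IMQ mouse stood well above the highest control mouse. The rise was 1.47 on the log2 scale (SE 0.23, edgeR adjusted p = 0.000851), a fold of 2.77. In skin labelled Lcn2-/-, Il22ra1 was at 10.3, 12.6 and 14.4 CPM in controls and at 24.7, 16.9 and 20.6 CPM in IMQ mice, again without overlap, and rose by 0.74 (SE 0.23, adjusted p = 0.0356). That second call did not survive when mice were left out in turn, with an adjusted p between 0.0518 and 0.125 in 5 of the 6 fits.

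Il20ra, the ligand-binding chain of the receptor that IL-19 needs, was at 6.33, 13.4 and 8.77 CPM in WT control mice 1 to 3 and at 0.848, 2.49 and 0.678 CPM in WT IMQ mice. The highest IMQ mouse, mouse 2, was still below the lowest control. Il20ra fell by 2.85 on the log2 scale (SE 0.65, edgeR adjusted p = 0.00728), and by 3.64 without that mouse (adjusted p = 0.00437). Skin labelled Lcn2-/- gave 9.62, 5.06 and 15 CPM in controls and 2.56, 0.818 and 0.54 CPM in IMQ mice, and Il20ra fell by 2.92 (SE 0.65, adjusted p = 0.00788). An antisense gene, Gm33332, overlaps Il20ra, and how the counting used strand is not given in the sources used here, so reads of the pair cannot be told apart.

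The 6 markers of Langerhans and dendritic cells moved with Il20ra in WT skin. They summed to between 62.8 and 85.8 CPM in WT control and 20 and 31.6 in WT IMQ, and to between 50.7 and 101 in control and 33.1 and 48.7 in IMQ mice labelled Lcn2-/-. Of the 6, 3 fell in WT skin and 2 in skin labelled Lcn2-/-, beside 14.3% and 11.2% of all genes. Cd207, the langerin of Langerhans cells, fell by 2.45 on the log2 scale in WT skin (edgeR adjusted p = 0.000318) and fell by 2.53 in the other genotype (adjusted p = 0.000424). None of the 6 was at 0 in every mouse of a group, and their part in the Il20ra result was not tested.

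Il20rb, the chain common to the IL-20 receptors, was the most abundant receptor gene of the set and differed little. It was at 63.4, 74.4 and 89.3 CPM in WT control mice, 74.1, 65.6 and 73.9 in WT IMQ mice, 74, 56 and 94.8 in controls labelled Lcn2-/- and 82.7, 48.2 and 47.3 in IMQ mice labelled Lcn2-/-. All 4 groups overlapped. The differences between IMQ and control were -0.09 on the log2 scale in WT (SE 0.24, edgeR adjusted p = 0.812) and -0.34 in mice labelled Lcn2-/- (SE 0.24, adjusted p = 0.32).

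**Figure D2:**
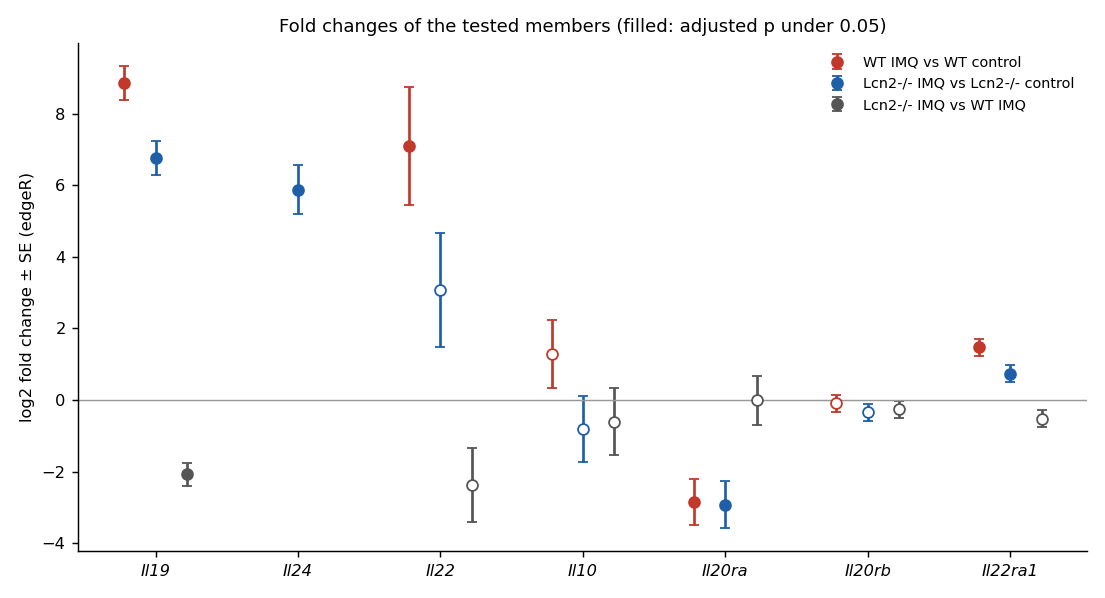
Log2 fold changes with SE from the edgeR fit for the 7 tested genes in 3 contrasts, filled where the adjusted p was under 0.05; Il24 is drawn only in the contrast that its choice did not use. Il19 and Il22ra1 lie above 0 and Il20ra below 0 in both IMQ contrasts, and of the contrasts between the IMQ groups only that of Il19 is filled, at -2.08.

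Counted over the genes that could be tested, and leaving Il24 and Il22 out of WT IMQ against WT control for the reasons given, 2 of 5 were called higher (Il19 and Il22ra1) and 1 lower (Il20ra). Among all genes tested, 14.2% were called higher and 14.3% lower in that contrast. In mice labelled Lcn2-/-, 3 of 7 were called higher (Il19, Il24 and Il22ra1) and 1 lower (Il20ra), beside 14.1% and 11.2% of all genes. The median of all genes was -0.02 on the log2 scale in the first contrast and -0.05 in the second.

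Set against the exon length of each gene, Il19 stood above every receptor chain in WT IMQ skin, and no other ligand did so. In WT control the order in CPM per kb of exon was Il20rb (18 ± 3.09, SD, n = 3), Il22ra1 (4.16 ± 0.897), Il20ra (3.91 ± 1.47), Il10 (0.709 ± 1.09) and Il19 (0.0971 ± 0.051), with Il20, Il24 and Il22 at 0 counts. Il22ra1 and Il20ra did not differ beyond their spread there, nor did Il10 and Il19. In WT IMQ the order was Il19 (47.2 ± 13.3), Il20rb (16.9 ± 1.15), Il22ra1 (11.5 ± 2.91), Il24 (10.3 ± 1.91), Il10 (1.8 ± 1.38), Il20 (0.967 ± 0.796), Il22 (0.777 ± 0.145) and Il20ra (0.551 ± 0.411). The levels of Il22ra1 and Il24, and those of the last 4 genes in the order, lay within each other's spread.

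In IMQ skin labelled Lcn2-/-, Il20rb came first again in CPM per kb (14.1 ± 4.8), ahead of Il19 (11.1 ± 2.94) and Il22ra1 (8.07 ± 1.53), whose values lay close together, and of Il24 (2 ± 0.894). The make-up of the IL-20 subfamily differed little between the IMQ groups, which was not tested. Il19 made up 80.7%, 81.3% and 79.7% of the 3 ligands' CPM per kb in WT IMQ mice 1 to 3, and 82.5%, 86.6% and 81.9% in IMQ mice labelled Lcn2-/-. Il24 made up 17.9% ± 1.6 and 14.7% ± 2.76 (SD, n = 3), and Il20 the small rest.

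The opposite movement of the receptor chains changed their proportions. Per kb, Il22ra1 stood to Il20ra as 1.72, 0.571 and 1.34 to 1 in WT control mice 1 to 3 and as 42.5, 9.2 and 37 to 1 in WT IMQ mice. In skin labelled Lcn2-/- the ratios were 1.01, 2.36 and 0.908 in controls and 9.11, 19.5 and 36 in IMQ mice. Both IMQ groups lay above both control groups, with a two-sided exact permutation p of 0.1 in each genotype, the smallest that 3 against 3 mice allow, for 16 ratio comparisons in all. Between the IMQ groups the ratio differed by -0.39 on the log2 scale (exact permutation p = 0.5). The ratio of Il20rb to Il20ra moved the same way, from 4.96 ± 1.51 in WT control to 42.8 ± 24.7 in WT IMQ (exact permutation p = 0.1). The ratio of Il20rb to Il22ra1 went down, from 4.46 ± 1.14 to 1.51 ± 0.285 (exact permutation p = 0.1).

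**Figure D3:**
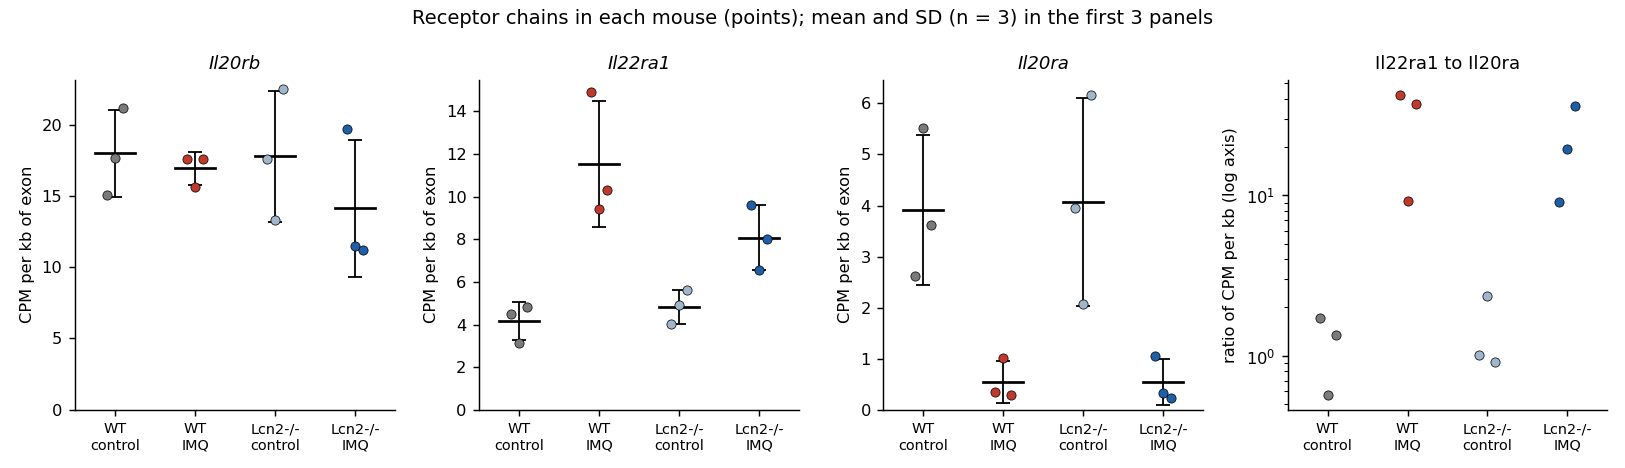
CPM per kb of exon for the 3 receptor chains in each mouse, with mean and SD of 3 mice, and the ratio of Il22ra1 to Il20ra in each mouse on a log axis. The ratio lies between 0.571 and 2.36 in the 6 control mice and between 9.11 and 42.5 in the 6 IMQ mice.

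Between the IMQ groups, the question was whether the label Lcn2-/- went with another response of these genes. Il19 was lower by a fold of 4.23 in the IMQ mice labelled Lcn2-/- (-2.08 on the log2 scale, SE 0.31, edgeR adjusted p = 0.0219), the only one of 6 genes called lower, and none was called higher. Among all genes 2.6% were called lower and 2.19% higher. At an unadjusted p under 0.05, 3 of the 6 were lower and 0 higher, and in DESeq2 1 was lower and 0 higher. The unadjusted count includes Il22, which was kept for testing only through the WT IMQ mice. It has no matching share of all genes here, so it is a description. The call of Il19 depended on which mice were fitted. It held without WT IMQ mouse 2, the highest (-1.82, adjusted p = 0.00819), and without mouse 2 of both WT groups (-1.80, adjusted p = 0.00576). It was lost when any other of the 6 mice was left out, with differences from -2.31 to -1.93 and an adjusted p from 0.0564 to 0.13.

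Il22 (-2.37, SE 1.04, edgeR adjusted p = 0.179) and Il22ra1 (-0.52, SE 0.23, adjusted p = 0.173) were lower at unadjusted p-values of 0.0467 and 0.0436 and were not called. For Il20ra the difference was -0.01 (SE 0.69), for Il20rb -0.26 (SE 0.24) and for Il10 -0.60 (SE 0.94), each within its error. With calls made instead at a fold above 2 and an unadjusted p under 0.05, Il19 and Il22 were lower, the latter under the same limit on its selection, beside 3.35% of all genes.

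The keratinocyte markers moved with these values. The 10 markers summed to between 6460 and 10413 CPM in WT control, 33643 and 45085 in WT IMQ, 6772 and 9209 in control labelled Lcn2-/- and 19716 and 30926 in IMQ labelled Lcn2-/-. In WT IMQ against WT control 9 of the 10 rose and 1 fell, and between the IMQ groups 2 were lower and none higher by edgeR. Among all genes 14.2% rose and 14.3% fell in the first contrast, and 2.6% were lower in the second. Fibroblast markers summed to between 10041 and 10596 CPM in WT IMQ and 19630 and 20462 in IMQ labelled Lcn2-/-. What the share of these cells adds to the lower Il19, Il22 and Il22ra1 values was not tested.

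Without IMQ, none of the 6 tested genes other than Il24 differed between control mice labelled Lcn2-/- and WT controls in edgeR, at an adjusted or an unadjusted p under 0.05, nor did any in DESeq2. Among all genes 0.0054% were called higher and 0.0054% lower. The largest difference was that of Il22, 1.66 on the log2 scale with an SE of 2.07, which rests on 1 count. Without WT control mouse 2, the difference of Il10 moved from 1.51 (SE 0.94, adjusted p = 0.895) to 4.70 on the log2 scale, with an unadjusted p of 0.000136 and an edgeR adjusted p of 0.158. The response to IMQ was then compared between the genotypes as an interaction. The rise of Il19 was smaller by 2.09 on the log2 scale in mice labelled Lcn2-/- (SE 0.88, unadjusted p = 0.0356, edgeR adjusted p = 0.177) and that of Il22ra1 by 0.73 (the interaction was -0.73, SE 0.32, unadjusted p = 0.0435, adjusted p = 0.193). Leaving out Il24, no gene of the set was called in either direction, in edgeR or DESeq2, beside 1.37% of all genes called higher and 0.783% lower. At a fold above 2 and an unadjusted p under 0.05, Il19 alone was lower, beside 4.91% of all genes. For Il20ra the interaction was -0.07 (SE 0.89).

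The genes around the cluster did not share the size of its rise. Of 12 tested genes within 250 kb of Il24, edgeR called 4 higher, the member Il19 among them, and 1 lower in WT IMQ against WT control. Among all genes 14.2% were called higher and 14.3% lower. Il19 rose by 8.86, while Gm28857 (2.18), Yod1 (1.38), a deubiquitinase gene, and AA986860 (0.62) rose by less on the log2 scale and Gm28856 fell by 2.14. Mapkapk2, the kinase gene beyond Il10, was among those not called. In mice labelled Lcn2-/-, 2 were called higher (Il19 and Yod1) and 3 lower, beside 14.1% and 11.2% of all genes. Pigr, the receptor that carries IgA across epithelia, fell by 5.90 (edgeR adjusted p = 0.0217), Gm28856 by 2.63 and Gm15848 by 1.71. Near Il22ra1, Grhl3, a transcription factor of epidermal differentiation, rose by 2.68 in WT skin (adjusted p = 4.71e-06).

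**Figure D4:**
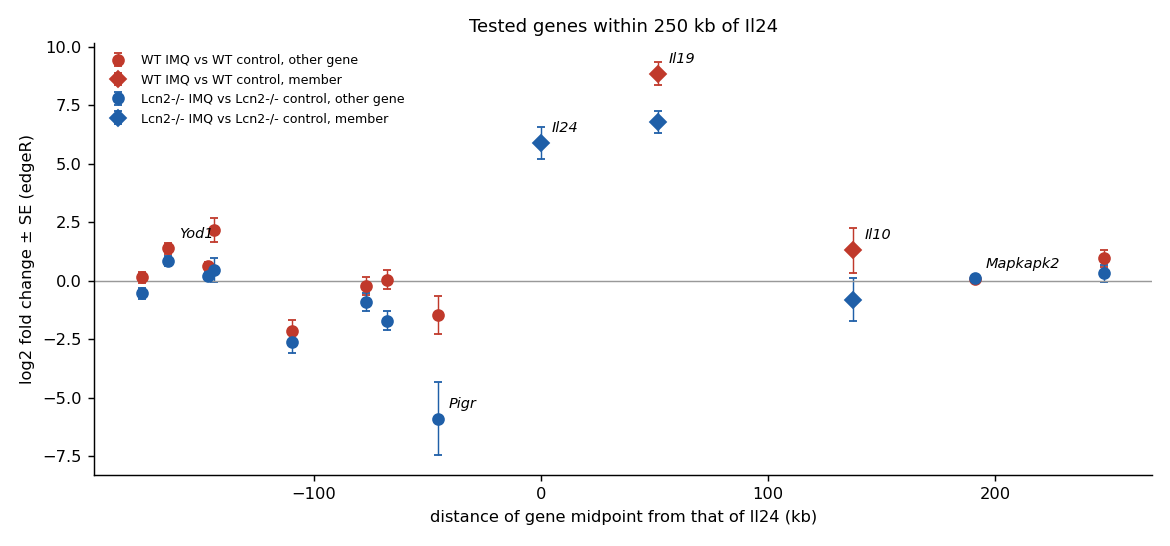
Log2 fold changes with SE of the tested genes within 250 kb of Il24, against the distance of their midpoints from that of Il24 in kb, in both IMQ contrasts; Il24 is drawn only in mice labelled Lcn2-/-. Il19 stands at 8.86 in WT skin and 6.77 in skin labelled Lcn2-/- and Il24 at 5.88, and no other gene of the window lies above the 2.18 of Gm28857.

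Genes with the closest pattern to each member were found by the root mean square difference of log2 CPM over the 12 mice, each gene centred on its mean. For Il19 they were Serpinb3d (0.59), Krt6a (0.63), a keratin of activated epidermis, and Sprr2a1 (0.63), a cornified envelope gene. For Il24 they were Spink12 (0.46), Gm5478 (0.48) and the defensin gene Defb4 (0.50). Il22 was closest to Gm15432 (0.20), Abcg4 (0.24) and Ptgr1 (0.25), and Il10 to the chemokine gene Ccl2 (0.55), Tnfaip3 (0.56) and Lrrc30 (0.57). Il20ra was closest to Slc46a2 (0.32), the T cell adaptor gene Trat1 (0.33) and Cd207 (0.40). Il20rb was closest to Angel1 (0.13), Coil (0.16) and Mboat2 (0.16), and Il22ra1 to Plcxd1 (0.12), the insulin-degrading enzyme gene Ide (0.15) and Rhod (0.16). The distances share the same 12 libraries and are a description.

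None of the other tested receptor genes of the family was called higher in both genotypes, as Il22ra1 was. Of 7 further ligands and receptors, 4 were tested, and in WT IMQ against WT control 1 rose and none fell, beside 14.2% and 14.3% of all genes. That gene was Ifnlr1, the interferon lambda receptor chain beside Il22ra1, which was at 7.59 ± 0.709 CPM in WT control, 13.2 ± 3.58 in WT IMQ, 11.4 ± 2.08 in control labelled Lcn2-/- and 5.86 ± 0.286 in IMQ labelled Lcn2-/-. It rose by 0.80 in WT skin (SE 0.22, edgeR adjusted p = 0.0179), fell by 0.96 in the other genotype (adjusted p = 0.00931) and differed between the IMQ groups by -1.17 (adjusted p = 0.026). Il10rb, the partner of IL-22RA1 in the IL-22 receptor, was at 29.2 ± 10.1 and 36.3 ± 8.17 CPM in WT control and IMQ (adjusted p = 0.354), and rose by 1.33 in mice labelled Lcn2-/- (adjusted p = 0.00278). Il10ra, the ligand-binding chain for IL-10, rose by 1.61 in those mice (edgeR adjusted p = 0.00555). Their 6 macrophage markers all rose as well, beside 14.1% of all genes, and that link was not tested. Il22ra2, the soluble protein that binds IL-22, was at 6.68 ± 2.26 and 3.25 ± 1.74 CPM in WT control and IMQ and was not called (adjusted p = 0.129).

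Among 13 genes of JAK-STAT signalling, through which these receptors act, 3 rose and 1 fell in WT IMQ against WT control. Among all genes 14.2% were called higher and 14.3% lower, and the median of the 13 was 0.05 on the log2 scale. Stat3, the main transducer of IL-22, rose by 1.12 (SE 0.13, edgeR adjusted p = 0.000134) and its feedback inhibitor Socs3 by 2.57 (SE 0.36, adjusted p = 0.000427), and Jak2 rose by 0.49 (SE 0.15, adjusted p = 0.0302). In mice labelled Lcn2-/- the counts were 3 higher and 2 lower, beside 14.1% and 11.2% of all genes. Between the IMQ groups Cish, another feedback inhibitor, was the only one called lower (-1.12, SE 0.24, adjusted p = 0.0347), beside 2.6% of all genes. Of the 13 none was higher in edgeR, at an unadjusted p under 0.05 or in DESeq2.

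Of 20 keratinocyte genes that IL-22 or IL-20 cytokines raise in culture, 19 were tested and 17 rose in WT IMQ against WT control. Among all genes 14.2% were called higher and 14.3% lower there. The median of the 19 was 5.81 on the log2 scale beside -0.02 for all genes. Serpinb3a, a serine protease inhibitor gene of the epidermis, was at 0.0475 ± 0.00521 CPM in WT control and 546 ± 69.6 in WT IMQ (edgeR adjusted p = 3.3e-07), and Serpinb3b rose by 5.81 (SE 0.32, adjusted p = 1.29e-06). In mice labelled Lcn2-/- 15 rose and 1 fell, with a median of 3.87, beside 14.1% and 11.2% of all genes. Between the IMQ groups 3 of the 19 were lower, with a median of -0.91 over the 19 and beside 2.6% of all genes. These were Serpinb3b (-1.18, SE 0.26, adjusted p = 0.0353), Il1rn, the IL-1 receptor antagonist (-0.82, SE 0.18, adjusted p = 0.0353), and the chemokine gene Ccl20 (-2.19, SE 0.50, adjusted p = 0.0393). None of the 19 was higher, at an unadjusted p under 0.05 or in DESeq2 either. The neutrophil genes S100a8 and S100a9 belong to this list, and the 7 neutrophil markers summed to between 15.2 and 42.8 CPM in WT control and 6088 and 10205 in WT IMQ. S100a8 and S100a9 are also among those 7 and made up most of the WT IMQ sum, at 2748 ± 1195 and 4777 ± 996 CPM. Csf3r, the next in level there, was at 12.4 ± 6.38 CPM in WT control and 71.1 ± 6.01 in WT IMQ. All 7 markers were called higher in that contrast, beside 14.2% of all genes.

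The differentiation genes that IL-22 lowers in culture were mostly higher in IMQ skin. Of 11, 9 rose and 1 fell in WT and 10 rose and 1 fell in mice labelled Lcn2-/-, with medians of 2.39 and 1.43 on the log2 scale. Among all genes 14.2% were called higher and 14.3% lower in WT, and 14.1% and 11.2% in the other genotype. Calm4, a calcium-binding protein of the upper epidermis, rose by 3.11 (SE 0.28, edgeR adjusted p = 1.7e-05) and the keratin gene Krt1 by 3.77 (SE 0.37, adjusted p = 3.54e-05) in WT skin. Flg2, a filaggrin family gene named here after its values were seen, fell by 2.77 (adjusted p = 0.000467). Between the IMQ groups edgeR called none, while 1 was higher and 1 lower at an unadjusted p under 0.05 and 1 lower in DESeq2.

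Of 14 cytokines known to induce the IL-20 subfamily or IL-22, 12 were tested, with the IL-36 genes listed as Il1f6, Il1f8 and Il1f9. In WT IMQ against WT control 10 rose and none fell, with a median of 3.53 on the log2 scale, beside 14.2% and 14.3% of all genes. In mice labelled Lcn2-/- 7 rose and none fell, with a median of 1.85, beside 14.1% and 11.2% of all genes. Il1f6, which encodes IL-36 alpha, rose by 5.06 in WT skin (SE 0.28, edgeR adjusted p = 1.29e-06) and Il1f9, which encodes IL-36 gamma, by 3.70 (SE 0.25, adjusted p = 2.46e-06). Between the IMQ groups 2 of the 12 were lower and none higher, beside 2.6% and 2.19% of all genes. Il17c, an epithelial IL-17 cytokine, had 33, 28 and 44 counts in WT IMQ mice 1 to 3 and 4, 2 and 4 in IMQ mice labelled Lcn2-/- (-3.29, SE 0.55, edgeR adjusted p = 0.0219). Il17c, like Il22, was kept for testing only through the WT IMQ mice, so its calls here are a description. It is among the 10 and the 2 counted above. Il1a was also lower, at 56.1 ± 10.7 CPM in WT IMQ and 24.9 ± 2.78 in IMQ labelled Lcn2-/- (-1.17, SE 0.21, edgeR adjusted p = 0.0237). Il17a did not share this, at 0.789 ± 0.427 CPM in WT IMQ and 1.47 ± 0.669 in IMQ labelled Lcn2-/- (adjusted p = 0.373).

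**Figure D5:**
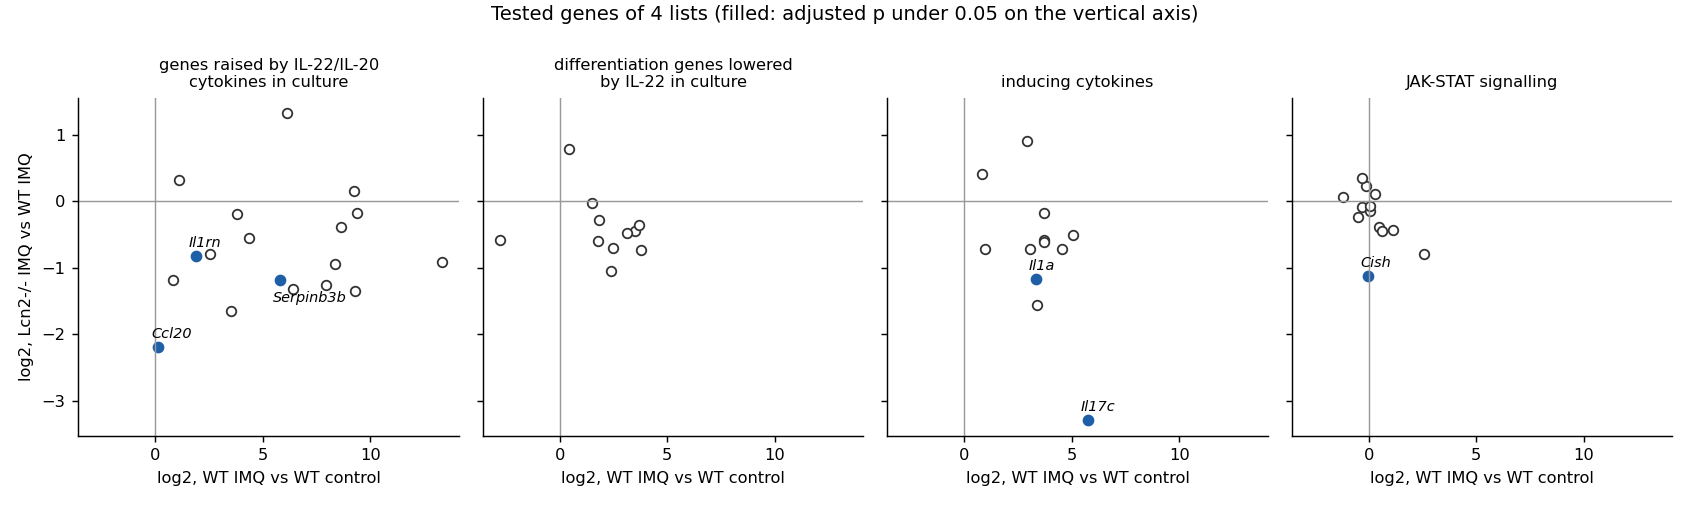
Tested genes of 4 lists (Lcn2 left out), by their log2 fold change in WT IMQ against WT control (horizontal) and in IMQ labelled Lcn2-/- against WT IMQ (vertical), filled where the adjusted p on the vertical axis was under 0.05. Most genes raised by these cytokines in culture and most inducing cytokines lie to the right of 0, and the filled points, among them Il17c at -3.29 and Ccl20 at -2.19, lie below 0. The point of Il17c, kept for testing only through the WT IMQ mice, is a description.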

How the data were processed

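A single table of unnormalized counts was deposited by the authors, with 56923 Ensembl gene identifiers in rows and 12 libraries in columns. The submitters' processing notes name HISAT and mm8, the paper's methods name DESeq2, and the counter, annotation and strand setting are not given in the sources used here. Names, positions and exon lengths came from GENCODE M21 (GRCm38), which holds 52073 identifiers (91.5%). The unmatched ones hold 0.567% of the counts.

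Counts were normalized by TMM and fitted with edgeR 4.0.16 (R 4.3.3) as 4 group means over 12 mice, by the robust quasi-likelihood test, for 18529 genes kept by filterByExpr at a minimum count of 10 and a minimum total of 15. A gene was called at a Benjamini-Hochberg adjusted p under 0.05. CPM are relative to the normalized library size, and levels between genes are per kb of exon. The test was tried on simulated counts first. No library was a duplicate of another of its group, and pairs from different groups were not checked.

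The members and lists were chosen with earlier results of these data known. The text names all 8 members, per list up to 4 genes with the smallest adjusted p (WT IMQ against WT control, or between the IMQ groups), per member the 3 genes nearest in pattern with a mean of at least 0.5 CPM, and called genes within 250 kb. Flg2, Trbc2, Mapkapk2, Il17a, S100a8 and S100a9 were named after their values were seen. Alternatives were RLE size factors, DESeq2 1.42.0, no filter, the replicate block, a fit to the compared groups alone, a fold rule and the removal of 1 mouse at a time. Leaving out mouse 2 of both WT groups was added after the data were seen. Replicate numbers come from the labels, and same-numbered mice are different animals.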

Additional observations from a re-analysis of the deposited data

Results flagged for a closer look

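No member met a rule for a closer look. Among the genes of the pathway lists, 9 differed between the genotypes in their response to IMQ by edgeR's interaction test. They were 4 of 19 tested genes raised in culture, 4 of 12 inducing cytokines and 1 of 4 further ligands and receptors. The other pathway lists held none. Among all genes 1.37% were called higher and 0.783% lower. All 9 interactions were negative, the rise being smaller in mice labelled Lcn2-/-, or the level falling there. On the log2 scale these were Serpinb3a at -4.61 (adjusted p = 0.0249), Serpinb3b at -1.95 (adjusted p = 0.0375), Il1rn at -1.29 (adjusted p = 0.0375), Ccl20 at -3.23 (adjusted p = 0.0423), Il17c at -5.44 (adjusted p = 0.0249), Il17f at -3.54 (adjusted p = 0.0223), Il1a at -1.63 (adjusted p = 0.031), Il1f6 at -1.84 (adjusted p = 0.0311) and Ifnlr1 at -1.76 (adjusted p = 0.0251). Ifnlr1 was called in opposite directions, 0.80 in WT skin and -0.96 in skin labelled Lcn2-/-. Of the cell type markers, 3 of the 6 fibroblast genes, all collagens, differed in the other direction, beside 1.37% of all genes. These were Col1a1 by 1.37 on the log2 scale (edgeR adjusted p = 0.0195), Col1a2 by 1.31 (adjusted p = 0.0262) and Col3a1 by 1.36 (adjusted p = 0.0484). With each of the 12 mice left out in turn, the calls of the 9 held in 3 to 6 of the 12 fits. Serpinb3a and Il17c were near 0 CPM in WT control, so the sizes of their interactions depend on the prior count. Il17c was kept for testing only through the WT IMQ mice, so its interaction is a description.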

How the results depend on the processing

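The numbers of members called (Il22 included, Il20 where it was kept) under RLE size factors, DESeq2, no filter on low counts, the compared groups only and the replicate block were within 1.5 times those reported in all 5 contrasts. With the replicate block, 3 were higher and 1 lower in WT IMQ against WT control, and 1 lower between the IMQ groups (Il19, adjusted p = 0.0457). Same-numbered mice did not deviate together (mean r -0.0507 over 18 pairs, from -0.555 to 0.199), so the numbers name mice only. With each mouse left out in turn, members called higher in WT IMQ against WT control ranged from 3 to 5, the 5 (with Il20 and Il10) arising without WT control mouse 2. Members called lower ranged from 0 to 1 between the IMQ groups and from 0 to 1 for the interaction, the 1 being Il10 without WT control mouse 2 (-5.28, adjusted p = 0.0447). It was also 1 without mouse 2 of both WT groups (-4.46, adjusted p = 0.0149). Under the fold rule 2 were lower between the IMQ groups and 1 in the interaction.

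Calls over all genes between the IMQ groups (405 higher, 481 lower) became 1198 and 1261 in DESeq2, 1077 and 817 with the compared groups only, 77 and 59 with the replicate block, 0 to 1288 and 0 to 1438 with 1 mouse left out (the highest without WT IMQ mouse 2), and 1905 and 1675 without mouse 2 of both WT groups. Those of the interaction (253 and 145) became 1034 and 875 in DESeq2, 7 and 3 with the block, and 2 to 1015 and 0 to 912 with 1 mouse left out. Between controls (1 and 1) DESeq2 called 56 and 49. No member's called direction reversed. Counts of a few reads limit Il20 and Il22, and a group of 3 mice limits every contrast.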
